A study of Homo sapiens with 21 samples.

Results

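The aldo-keto reductases are NADPH-dependent enzymes of the cytosol that reduce aldehydes and ketones to alcohols, and the genes studied here are 10 members of that superfamily: AKR1A1, AKR1B1, AKR1B10, AKR1C1, AKR1C2, AKR1C3, AKR1C4, AKR1D1, AKR7A2 and AKR7A3. They were taken by gene name from the deposited expression tables, where they are 10 of 28808 listed genes. All 10 were listed in every table and all 10 reached the minimum level for testing, which 13405 genes did. In liver these enzymes handle sugars (AKR1B1), retinaldehyde and lipid aldehydes (AKR1B10), steroid hormones (AKR1C1 to AKR1C4), bile acid intermediates (AKR1C4 and AKR1D1), glucuronate (AKR1A1) and toxic dialdehydes such as those of aflatoxin (AKR7A2 and AKR7A3). Several of them, above all AKR1B10 and the AKR1C genes, are known in human cells as targets of NRF2, the transcription factor that answers oxidants and electrophiles. AKR1B10 is low in healthy liver and often high in liver cancer.

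RNA was sequenced from C3A cells, a clone selected from HepG2, a line of human liver tumour cells, so that every group is this 1 clone. Cells were exposed for 48 h, with 3 libraries each, to the herbicide glyphosate at 5.6 µM (0.95 µg/mL), to AMPA, or aminomethylphosphonic acid, into which glyphosate is degraded, at 34 µM (3.7 µg/mL), to the auxin-like herbicide 2,4-D at 2.5 µM (0.56 µg/mL), to glyphosate and 2,4-D together (glyphosate+2,4-D), or to AMPA and 2,4-D together (AMPA+2,4-D), each compound of a mixture at its single dose. The 6 libraries of unexposed cells received none of these compounds, and the labels give no culture time for them. All 5 exposures were compared with the same unexposed libraries, so their changes share those values. Unexposed replicates 1 to 3 and 4 to 6 stood apart over the whole transcriptome (4239 of 13405 genes, 31.6%, were called between them), so exposed libraries were compared with all 6, with replicates 1-3 and with replicates 4-6.

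Whole reads recovered from the deposited FPKM (fragments per kilobase of gene and megaread) came to 15.2 to 24.35 M a library. All 13 hepatocyte marker genes checked had mean levels of at least 1 FPKM in every group, with summed levels of 12106 to 14190 FPKM in exposed libraries, 8181 to 8589 FPKM in unexposed 1-3 and 10955 to 12292 FPKM in unexposed 4-6. Fibroblast and stellate markers, with 2 of 7 at 1 FPKM or more, summed to 13.5 to 16.4 FPKM in exposed libraries, 16.03 to 18.0 FPKM in unexposed 1-3 and 22.4 to 24.4 FPKM in unexposed 4-6. The leukocyte list, also with 2 of 7 at that level and mostly LYZ, summed to 475 to 627, 326 to 345 and 570 to 617 FPKM in the same groups, and endothelial markers to at most 0.2 FPKM. These sums moved with the groups, and their part in the results below was not tested. In RNA from whole cultures, fewer cells that express a gene and less RNA per cell cannot be told apart. Nothing in the labels says that replicates were separate cultures, so p-values measure the spread between these libraries.

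The AKR1C genes lie side by side on chromosome 10 and are so alike that reads can fit more than 1 of them, which bears on every AKR1C value. In GRCh38 coordinates AKR1C1 (ENSG00000187134) spans chr10:4963253-4983283 on the plus strand and AKR1C2 (ENSG00000151632) chr10:4987400-5018031 on the minus strand, so that these neighbours are transcribed towards each other. AKR1C3 (ENSG00000196139, chr10:5035354-5107686) and AKR1C4 (ENSG00000198610, chr10:5195462-5218949) follow on the plus strand. The coding sequences of AKR1C1 and AKR1C2 differ at 19 of 969 bases (98.0% identity), against 91.4% identity between AKR1C1 and AKR1C3 and 88.5% between AKR1C1 and AKR1C4. The stretch of 60 coding bases (103 to 162 of the coding sequence, in 1 exon) in which AKR1C1 and AKR1C2 differ most is shown because it is where a read tells the genes apart best. Capitals mark bases that differ from AKR1C1, 10 in AKR1C2, 7 in AKR1C3 and 5 in AKR1C4.
AKR1C1, chr10:4965932-4965991, plus strand: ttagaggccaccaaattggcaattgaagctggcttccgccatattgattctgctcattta
AKR1C2, chr10:5001604-5001663, minus strand: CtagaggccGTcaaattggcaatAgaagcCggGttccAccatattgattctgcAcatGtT
AKR1C3, chr10:5096428-5096487, plus strand: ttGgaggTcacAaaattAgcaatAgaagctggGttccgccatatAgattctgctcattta
AKR1C4, chr10:5200199-5200258, plus strand: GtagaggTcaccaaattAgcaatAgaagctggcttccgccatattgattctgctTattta
Elsewhere the copies share long runs. Of all 50-base windows of the coding sequence, 54.3% in AKR1C1, 57.1% in AKR1C2, 23.0% in AKR1C3 and 17.6% in AKR1C4 occur letter for letter in a transcript of another gene, and of 100-base windows 20.7% in AKR1C1 and 26.4% in AKR1C2. How the authors counted reads that fit several genes is not given in the sources used here, so the split of reads between AKR1C1 and AKR1C2 is uncertain. The same holds in part for AKR1B10, where 28.5% of 50-base windows occur in AKR1B15 or the pseudogene AKR1B10P1, and for AKR7A3, where 31.5% occur in AKR7L, AKR7A2 or AKR7A2P1. AKR1A1 and AKR1D1 share almost nothing, with 0% and 0.323% of their windows.

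The start regions of AKR1C1 and AKR1C2 are near copies as well, and whether this bears on their levels was not tested. Over the 300 bases that RefSeq (GRCh38.p14) places around the start of each gene (250 before it and 50 after), the 2 sequences align over 292 bases with 4 differing bases and 4 unpaired ones, an identity of 98.6%. The same region of AKR1C4 has an identity of 70.5% with that of AKR1C1, and the 2 such regions of AKR1C3 have 78.0% and 79.5%. Capitals mark the bases that differ or have no partner inside the aligned stretch, and the ends beyond it, which also have none, are in lower case.
AKR1C1, chr10:4963165-4963464, plus strand: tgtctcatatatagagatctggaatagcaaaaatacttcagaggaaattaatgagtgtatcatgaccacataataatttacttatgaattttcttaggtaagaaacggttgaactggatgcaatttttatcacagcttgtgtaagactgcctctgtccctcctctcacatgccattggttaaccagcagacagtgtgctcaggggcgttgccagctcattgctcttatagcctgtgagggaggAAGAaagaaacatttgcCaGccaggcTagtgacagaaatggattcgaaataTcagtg
AKR1C2, chr10:5003808-5004107, minus strand: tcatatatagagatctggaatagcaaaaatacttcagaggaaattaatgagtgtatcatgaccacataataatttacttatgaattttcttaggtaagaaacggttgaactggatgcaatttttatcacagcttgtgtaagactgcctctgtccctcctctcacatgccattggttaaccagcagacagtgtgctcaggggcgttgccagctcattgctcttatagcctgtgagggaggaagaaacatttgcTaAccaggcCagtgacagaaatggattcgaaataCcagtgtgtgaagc
The core of the antioxidant response element to which NRF2 binds, searched as TGACNNNGC on both strands, is in 13.3% of 35116 such regions of all genes. Of the 9 members with such a region it was found in AKR7A2 alone, and no match says only that these letters are not in this window. AKR1B10 had no such region and was not searched. The other motif searched, TATAAA on both strands, is in 11.5% of the regions and was found in AKR1C3 and AKR1C4.

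Levels differed widely between the genes, and AKR1C1 had the highest mean of the 10 in every group. In exposed cells the order was AKR1C1, AKR1C3, AKR7A2 and AKR1B10, with ranges that did not overlap between these neighbours in any of the 5 exposures, and then AKR1A1, AKR1B1 and AKR1C2, which were close to each other. Among these, AKR1C2 was apart and above after AMPA+2,4-D and apart and below AKR1A1 after AMPA, AKR1A1 was apart and above AKR1B1 after 2,4-D, and the ranges overlapped otherwise. AKR1B10 overlapped with AKR1A1 after glyphosate. Unexposed 1-3 had another order, with AKR1B10 next after AKR1C1. AKR1D1 was below these 7 genes in all groups, and AKR1C4 and AKR7A3 were last, with only 12 to 70 and 13 to 40 reads a library. FPKM divides by the length of all annotated exons of a gene, which is 8765 bases for AKR1C1 and 1744 bases for AKR1B10, so the order between genes depends on the annotation while the order between libraries does not. The summed FPKM of the 10 genes was 285 to 383 in exposed libraries, 586 to 848 in unexposed 1-3 and 333 to 403 in unexposed 4-6.

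**Figure D1:**
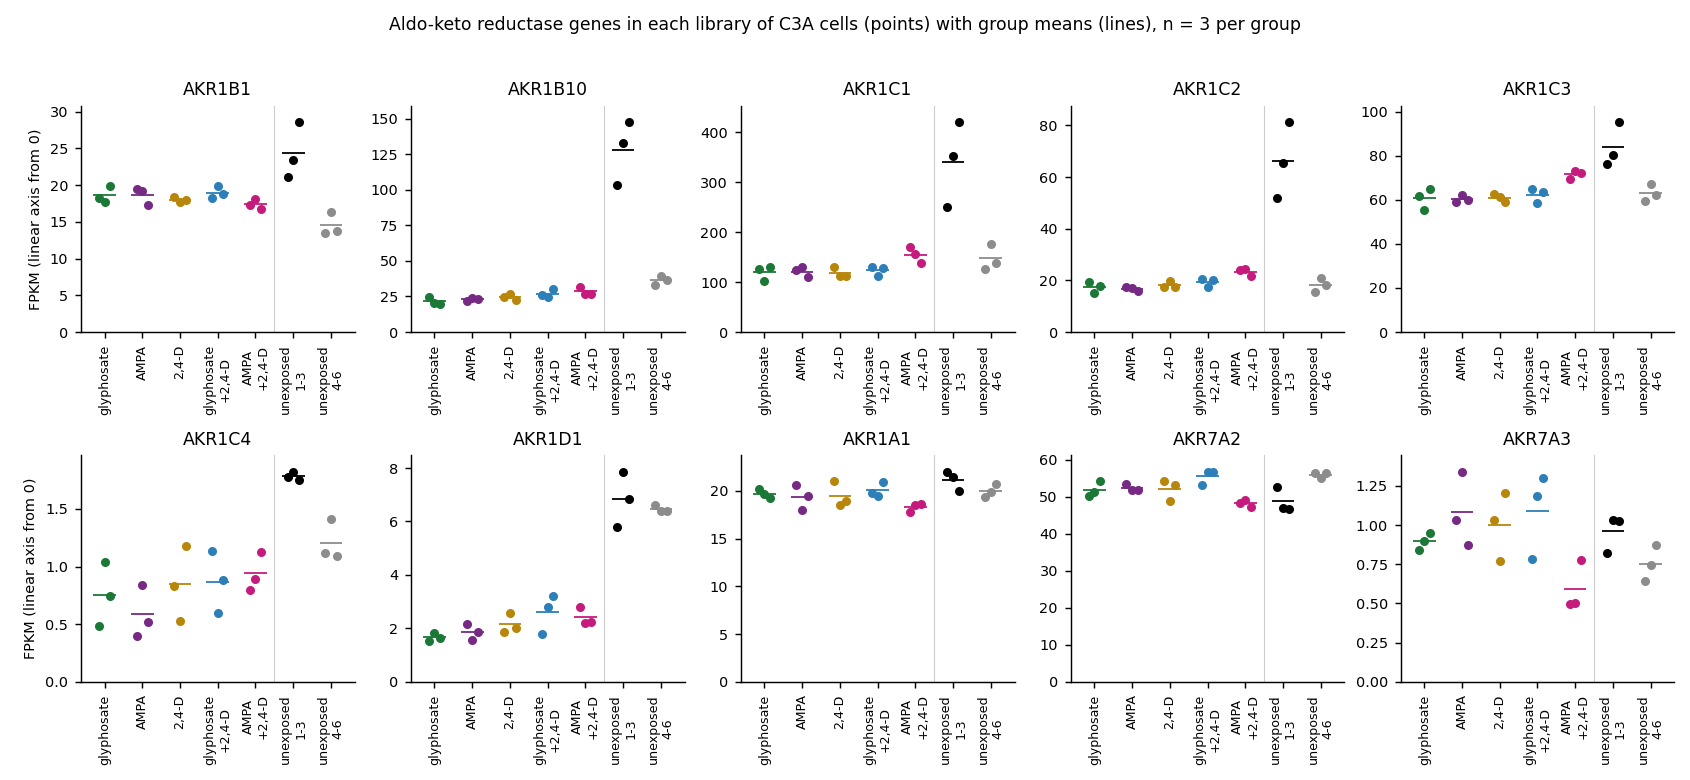
Level of each gene in FPKM (y axis, linear from 0) in each of 21 libraries (points), by group (x axis, exposures left of the unexposed sets), with group means as lines. AKR1B10 and AKR1D1 are lower in all 15 exposed libraries than in either unexposed set, AKR1B1 lies between the 2 sets, and AKR1C1, AKR1C2 and AKR1C3 are high in unexposed 1-3 only.

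Against all 6 unexposed libraries, some members fell and none rose in any exposure. Limma, with adjusted p under 0.05 over all genes tested, called 6 of 10 members lower after glyphosate, where 52.7% of all genes tested were called and 25.1% were called lower. It called 6 lower after AMPA (52.8% of all genes, 24.8% lower), 4 after 2,4-D (47.6%, 22.6% lower), 4 after glyphosate+2,4-D (48.1%, 22.7% lower) and 4 after AMPA+2,4-D (50.4%, 24.4% lower). AKR1B10, AKR1C4 and AKR1D1 were called lower in all 5 exposures, as were 15.4% of all genes. With both directions counted, the share of members called was near that of all genes tested. Called lower were 4 to 6 of 10 members, beside 22.6% to 25.1% of all genes, and the members were not tested as a set.

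Against unexposed 1-3 the same exposed libraries gave more calls than against unexposed 4-6. Limma called 7 members lower after glyphosate, after AMPA and after 2,4-D, beside 57.5% of all genes called (27.7% lower) after glyphosate, 58.0% (27.7% lower) after AMPA and 54.1% (26.3% lower) after 2,4-D. It called 7 lower and 1 higher after glyphosate+2,4-D (54.8%, 26.7% lower), and 9 lower after AMPA+2,4-D (55.3%, 26.7% lower). Against unexposed 4-6 it called 1 member higher and 2 lower after glyphosate (51.1% of all genes, 23.9% lower), 1 higher and 3 lower after AMPA (51.3%, 23.7% lower), and 1 higher and 2 lower after 2,4-D (46.4%, 21.7% lower). The mixtures gave 1 higher and 2 lower with glyphosate+2,4-D (46.7%, 21.8% lower), and 3 higher and 3 lower with AMPA+2,4-D (50.3%, 24% lower). AKR1B10 and AKR1D1 were the only members called lower in all 5 exposures against both sets, as were 10.7% of all genes.

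**Figure D2:**
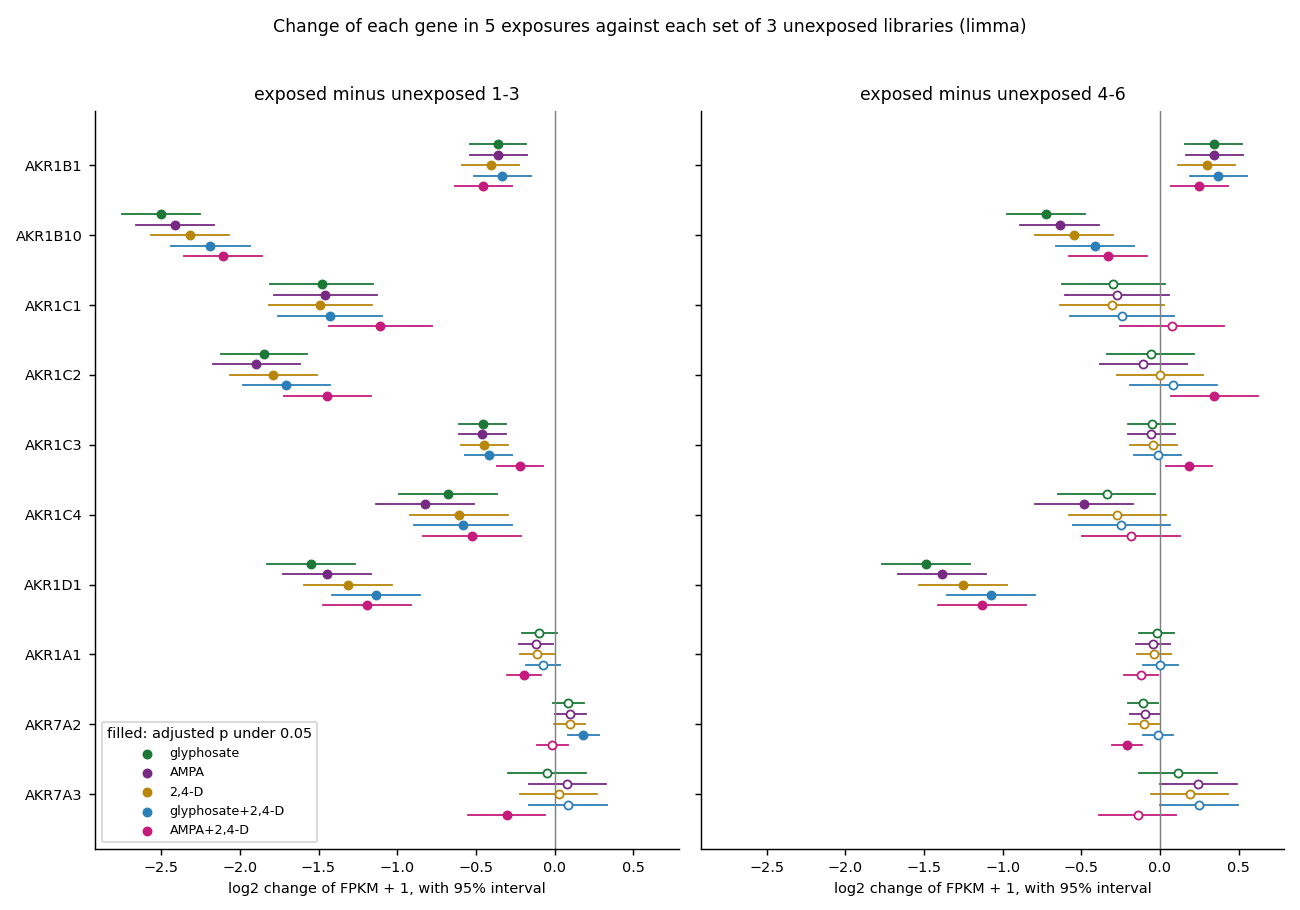
Change of each gene (rows) in each exposure (colours), as log2 of FPKM + 1 in exposed minus unexposed 1-3 (left) and minus unexposed 4-6 (right), with 95% intervals from limma; filled points have an adjusted p under 0.05. AKR1D1 lies near the same place in both panels, AKR1B10, AKR1C1, AKR1C2 and AKR1C3 move towards 0 on the right, and AKR1B1 changes sign.

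AKR1D1, which reduces the double bond of the steroid ring in bile acid synthesis and in the clearance of steroid hormones, fell by nearly the same amount against either unexposed set. It lies at chr7:138002324-138117986 on the plus strand (ENSG00000122787). Glyphosate libraries held 1.51, 1.84 and 1.64 FPKM, AMPA libraries 2.16, 1.55 and 1.87 FPKM, and 2,4-D libraries 1.86, 2.58 and 2.00 FPKM. The mixtures held 1.79, 2.79 and 3.21 FPKM with glyphosate+2,4-D and 2.81, 2.21 and 2.22 FPKM with AMPA+2,4-D. In unexposed cells the values were 5.77, 7.84 and 6.86 FPKM in replicates 1-3 and 6.60, 6.39 and 6.40 FPKM in replicates 4-6. The highest exposed library was thus below the lowest unexposed one, and the 2 unexposed sets overlapped. Of all genes 20.4% had all 15 exposed libraries below unexposed 1-3 and 17.1% had them below unexposed 4-6. Against all 6 unexposed libraries AKR1D1 changed by -1.52 ± 0.11 (log2 of FPKM + 1, ± SE) after glyphosate (limma, adjusted p = 7.8e-09) and by -1.10 ± 0.11 after glyphosate+2,4-D (adjusted p = 5.0e-07), the largest and the smallest of the 5 changes. Against unexposed 1-3 the 5 changes were -1.55 to -1.13 and against unexposed 4-6 -1.49 to -1.07, all called. Unexposed 1-3 minus unexposed 4-6 was 0.06 ± 0.13 (adjusted p = 0.78).

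AKR1B10, the retinaldehyde and lipid aldehyde reductase, was below both sets of unexposed libraries in all 15 exposed libraries, but the size of its fall depended on the set. It lies at chr7:134527592-134541408 on the plus strand (ENSG00000198074), next to AKR1B1. Glyphosate libraries held 24.8, 20.5 and 19.5 FPKM, AMPA libraries 21.6, 23.9 and 23.3 FPKM, and 2,4-D libraries 24.8, 26.6 and 22.4 FPKM. With glyphosate+2,4-D the values were 26.1, 24.8 and 30.4 FPKM and with AMPA+2,4-D 31.9, 27.1 and 27.1 FPKM. Unexposed 1-3 held 103, 133 and 147 FPKM, against 33.2, 39.2 and 36.5 FPKM in unexposed 4-6. The exposed libraries were close to each other, while the unexposed sets did not overlap and differed by 1.77 ± 0.12 (limma, adjusted p = 4.9e-09). Exposed minus unexposed 1-3 was -2.50 to -2.11 in the 5 exposures, and exposed minus unexposed 4-6 was -0.73 after glyphosate (adjusted p = 6.1e-05), -0.64 after AMPA, -0.54 after 2,4-D, -0.41 after glyphosate+2,4-D and -0.33 after AMPA+2,4-D (adjusted p = 0.027). AKR1B10 was called in all 5 exposures against all 6 unexposed libraries, and with only the compared groups in the fit the call was lost for glyphosate+2,4-D (-1.30, adjusted p = 0.0673) and AMPA+2,4-D (-1.22, adjusted p = 0.0815). The call for AMPA+2,4-D against unexposed 4-6 was lost on leaving out unexposed replicate 5 or 6, or AMPA+2,4-D replicate 2 or 3, with a highest adjusted p of 0.102 (without unexposed 5), and with no filter on low values (0.0595).

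AKR1B1, the aldose reductase that makes sorbitol from glucose in the polyol pathway, differed from its neighbour AKR1B10 in that exposed libraries lay between the 2 unexposed sets. The gene spans chr7:134442350-134459284 on the minus strand (ENSG00000085662), and its coding sequence is 76.7% identical to that of AKR1B10. Glyphosate libraries held 18.3, 17.7 and 19.8 FPKM, AMPA libraries 19.4, 19.2 and 17.3 FPKM, and 2,4-D libraries 18.3, 17.7 and 17.9 FPKM. Those with glyphosate+2,4-D held 18.2, 19.9 and 18.8 FPKM and those with AMPA+2,4-D 17.3, 18.1 and 16.8 FPKM. The unexposed values were 21.1, 23.4 and 28.5 FPKM in replicates 1-3 and 13.4, 16.4 and 13.7 FPKM in replicates 4-6. All 15 exposed libraries were thus below every one of unexposed 1-3 and above every one of unexposed 4-6, the second of which held for 19.3% of all genes. Limma called AKR1B1 lower in all 5 exposures against unexposed 1-3 (-0.45 to -0.33) and higher in all 5 against unexposed 4-6 (0.25 to 0.37), a pattern that 38 of 13405 genes (0.283%) had. Its changes against all 6 unexposed libraries together were -0.10 to 0.02 and none was called. The rise against unexposed 4-6 had an adjusted p of 0.022 for AMPA+2,4-D, which passed the threshold no longer without unexposed replicate 4 or 6 or without AMPA+2,4-D replicate 2 (highest adjusted p 0.0993). With the tables scaled to TPM, so that all libraries have the same sum, AKR1B1 was no longer called against unexposed 4-6 after AMPA (0.22, adjusted p = 0.0519) and AMPA+2,4-D (0.17, adjusted p = 0.128), nor by voom on recovered reads after AMPA+2,4-D (adjusted p = 0.0807).

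The ratio of AKR1B10 to AKR1B1 shows how unequally the neighbours changed. It was 0.986 to 1.84 in exposed libraries, 4.90 to 5.68 in unexposed 1-3 and 2.39 to 2.66 in unexposed 4-6, with no overlap between the 3. The ratio of AKR1C1 to AKR1C2 was 5.75 to 7.66 in exposed libraries, 4.83 to 5.37 in unexposed 1-3 and 7.66 to 8.36 in unexposed 4-6, so AKR1C2 differed more than AKR1C1 between the unexposed sets.

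**Figure D3:**
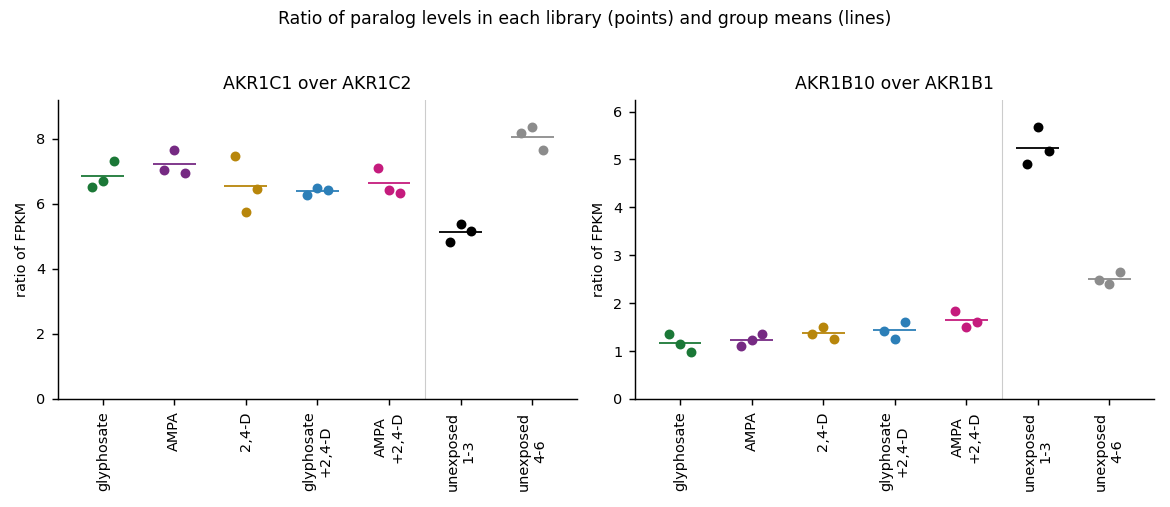
Ratio of FPKM of AKR1C1 to AKR1C2 (left) and of AKR1B10 to AKR1B1 (right) in each library (points), by group (x axis), with group means as lines and axes from 0. The AKR1B10 to AKR1B1 ratio is 0.986 to 1.84 in exposed libraries and at least 2.39 in unexposed ones, and the AKR1C1 to AKR1C2 ratio is lowest in unexposed 1-3.

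AKR1C1, which inactivates progesterone, and AKR1C2, which inactivates dihydrotestosterone, were high in unexposed 1-3, while exposed cells overlapped with unexposed 4-6. AKR1C1 was at 127, 101 and 130 FPKM after glyphosate, at 124, 130 and 109 FPKM after AMPA, and at 130, 113 and 112 FPKM after 2,4-D. It was at 129, 112 and 129 FPKM after glyphosate+2,4-D and at 170, 156 and 138 FPKM after AMPA+2,4-D. Unexposed 1-3 held 250, 351 and 420 FPKM of AKR1C1, and unexposed 4-6 held 127, 176 and 139 FPKM. Exposed libraries were below every one of unexposed 1-3 and overlapped with unexposed 4-6. Limma gave exposed minus unexposed 1-3 of -1.49 to -1.11, called in all 5, and exposed minus unexposed 4-6 of -0.30 to 0.08, called in none, with adjusted p of 0.12 to 0.71. The second depended on the method, since voom on recovered reads called AKR1C1 lower against unexposed 4-6 in all exposures but AMPA+2,4-D (-0.40 to -0.34, adjusted p of 0.00825 to 0.0256), and so did limma after scaling to TPM for AMPA (-0.42, adjusted p = 0.0314). Against all 6 unexposed libraries AKR1C1 was called lower after glyphosate (-0.89 ± 0.28, adjusted p = 0.012), AMPA, 2,4-D and glyphosate+2,4-D, but not after AMPA+2,4-D (-0.51 ± 0.28, adjusted p = 0.13). The call was lost without glyphosate replicate 2 (adjusted p = 0.0604), without AMPA replicate 3 (0.0583) and without glyphosate+2,4-D replicate 2 (0.0727), and it was gained for AMPA+2,4-D without unexposed replicate 4 (0.0339). With only the compared groups in the fit, all 4 calls were lost (adjusted p of 0.075 to 0.0961).

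AKR1C2 held 19.5, 15.1 and 17.8 FPKM after glyphosate, 17.6, 17.0 and 15.7 FPKM after AMPA, and 17.4, 19.7 and 17.4 FPKM after 2,4-D. Values were 20.6, 17.3 and 20.1 FPKM after glyphosate+2,4-D and 23.9, 24.2 and 21.8 FPKM after AMPA+2,4-D. Unexposed 1-3 held 51.9, 65.4 and 81.1 FPKM, and unexposed 4-6 held 15.5, 21.1 and 18.1 FPKM. The AMPA+2,4-D libraries were the highest of the exposed ones for AKR1C2 and all above unexposed 4-6, and the other exposed libraries overlapped with unexposed 4-6. Exposed minus unexposed 1-3 was -1.90 to -1.44, called by limma in all 5 exposures. Against unexposed 4-6 the changes were -0.11 to 0.09 in the first 4 exposures, none called, and 0.35 ± 0.13 after AMPA+2,4-D (adjusted p = 0.036). That call was lost without unexposed replicate 4 or 6 or AMPA+2,4-D replicate 1 or 2 (highest adjusted p 0.172), with no filter (0.0773), after scaling to TPM (0.27, adjusted p = 0.114) and by voom (0.27, adjusted p = 0.0518). Against all 6 unexposed libraries AKR1C2 was called lower after glyphosate (-0.95 ± 0.38, adjusted p = 0.045) and AMPA (-1.001 ± 0.38, adjusted p = 0.036), and both calls were lost on leaving out any 1 of unexposed replicates 1, 2 or 3 or of the 3 exposed replicates, with adjusted p up to 0.134 for glyphosate and up to 0.0975 for AMPA.

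AKR1C3, which makes testosterone from androstenedione and also prostaglandin F, changed the same way by smaller amounts. It held 61.8, 55.5 and 64.9 FPKM after glyphosate, 59.2, 62.3 and 60.2 FPKM after AMPA, and 62.9, 61.5 and 58.9 FPKM after 2,4-D. The mixtures held 64.8, 58.6 and 63.6 FPKM with glyphosate+2,4-D and 69.6, 73.3 and 72.0 FPKM with AMPA+2,4-D. Unexposed 1-3 held 76.1, 80.6 and 95.2 FPKM, against 59.4, 67.2 and 62.4 FPKM in unexposed 4-6. All exposed libraries were below unexposed 1-3, and the AMPA+2,4-D libraries were above unexposed 4-6. Limma called AKR1C3 lower against unexposed 1-3 in all 5 exposures (-0.46 to -0.22), and the smallest of these, after AMPA+2,4-D, had an adjusted p of 0.014 that became 0.102 without unexposed replicate 3. Against unexposed 4-6 it was called for AMPA+2,4-D alone (0.18 ± 0.07, adjusted p = 0.038), a call lost without unexposed replicate 4 or 6 or AMPA+2,4-D replicate 2 or 3 (highest adjusted p 0.147). It was also lost with no filter (0.0759), after scaling to TPM (0.09, adjusted p = 0.321) and by voom (0.10, adjusted p = 0.185). Voom called AKR1C3 lower than in unexposed 4-6 after glyphosate (-0.14, adjusted p = 0.0472) and AMPA (-0.18, adjusted p = 0.0149), and TPM scaling did after AMPA (-0.20, adjusted p = 0.0363). Against all 6 unexposed libraries AKR1C3 was called lower after glyphosate (-0.25, adjusted p = 0.046) and AMPA (-0.26, adjusted p = 0.044). Both calls were lost without unexposed replicate 1, 2 or 3, the glyphosate one also without glyphosate replicate 1 or 2 (up to 0.2) and the AMPA one without any AMPA replicate (up to 0.117).

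AKR1C4, the liver form that acts on steroids and bile acid intermediates, was near the lower limit of measurement. Glyphosate libraries held 0.484, 1.04 and 0.740 FPKM, AMPA libraries 0.396, 0.836 and 0.521 FPKM, and 2,4-D libraries 0.833, 0.525 and 1.18 FPKM. The range was 0.596 to 1.13 FPKM after glyphosate+2,4-D and 0.801 to 1.13 FPKM after AMPA+2,4-D. Unexposed 1-3 held 1.77, 1.82 and 1.75 FPKM, and unexposed 4-6 held 1.12, 1.41 and 1.09 FPKM. Exposed libraries were below every one of unexposed 1-3. Those of glyphosate and AMPA were also below every one of unexposed 4-6, those of the other 3 exposures overlapped with it, and 4 of 15 exposed libraries reached 1 FPKM against 6 of 6 unexposed ones. Limma called AKR1C4 lower against unexposed 1-3 in all 5 exposures (-0.82 to -0.52). Against unexposed 4-6 it was called after AMPA alone (-0.48 ± 0.15, adjusted p = 0.011), a call lost without AMPA replicate 1 (0.0528). After glyphosate it was called there by voom (-0.78, adjusted p = 0.0254) and after scaling to TPM (-0.60, adjusted p = 0.0447), but not on FPKM (-0.34, adjusted p = 0.063). AKR1C4 was called lower in all 5 exposures against all 6 unexposed libraries (-0.65 to -0.35). Those calls were lost without glyphosate replicate 1 (adjusted p = 0.0539), without 2,4-D replicate 2 (0.124), without glyphosate+2,4-D replicate 2 or 3 (up to 0.141) and, for AMPA+2,4-D, on leaving out any of 7 of 9 libraries (up to 0.159). The added 1 FPKM before taking logs makes these folds smaller than those of the levels themselves.

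AKR1A1 and AKR7A2, broadly expressed reductases of glucuronate and of succinic semialdehyde, varied little. AKR1A1 (ENSG00000117448, chr1:45550543-45570049, plus strand) ranged from 17.8 to 21.01 FPKM over the 15 exposed libraries with a median of 19.4, and from 19.4 to 22.0 FPKM over the 6 unexposed ones with a median of 20.4. AKR7A2 (ENSG00000053371, chr1:19303965-19312146, minus strand) ranged from 47.3 to 56.6 FPKM in exposed libraries, from 46.8 to 52.6 FPKM in unexposed 1-3 and from 55.0 to 56.5 FPKM in unexposed 4-6. Exposed libraries overlapped with both unexposed sets for either gene. AKR1A1 was called after AMPA+2,4-D alone, with -0.16 ± 0.05 against all 6 unexposed libraries (limma, adjusted p = 0.011, and 0.0578 without AMPA+2,4-D replicate 1) and -0.19 ± 0.05 against unexposed 1-3 (adjusted p = 0.0041). AKR7A2 was called higher than in unexposed 1-3 after glyphosate+2,4-D (0.18 ± 0.05, adjusted p = 0.0026) and lower than in unexposed 4-6 after AMPA+2,4-D (-0.21 ± 0.05, adjusted p = 0.0011). Scaling to TPM, under which the median change of all genes was -0.16 to -0.06 in the comparisons of exposures with all 6 or either set of unexposed libraries, reduced the AKR7A2 rise to 0.03 (adjusted p = 0.61). With the same scaling AKR1A1 was called lower against all 6 unexposed libraries in the other 4 exposures too (-0.25 to -0.16), and so it was by voom (-0.23 to -0.15). AKR7A2 was then called lower than in unexposed 4-6 in those 4 exposures by TPM (-0.24 to -0.12). Voom called that fall after glyphosate, AMPA and 2,4-D (-0.22 to -0.18), and the compared groups alone after glyphosate (-0.11) and AMPA (-0.09).

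AKR7A3 (ENSG00000162482, chr1:19282558-19289250, minus strand), a liver reductase of aflatoxin dialdehyde, held 0.842, 0.896 and 0.947 FPKM after glyphosate, 1.03, 1.34 and 0.875 FPKM after AMPA and 1.03, 0.771 and 1.20 FPKM after 2,4-D. It held 0.783, 1.19 and 1.30 FPKM after glyphosate+2,4-D and 0.498, 0.500 and 0.778 FPKM after AMPA+2,4-D. Unexposed 1-3 held 0.823, 1.03 and 1.03 FPKM, and unexposed 4-6 held 0.640, 0.747 and 0.873 FPKM. The AMPA+2,4-D libraries had the lowest mean and overlapped with unexposed 4-6 but not with unexposed 1-3, and the AMPA libraries lay just above unexposed 4-6. Against unexposed libraries its 1 call was for AMPA+2,4-D against unexposed 1-3 (-0.30 ± 0.12, limma adjusted p = 0.036), and it was lost without unexposed replicate 2 or 3 or AMPA+2,4-D replicate 1 or 2 (up to 0.109), with no filter (0.0568) and with the compared groups alone (0.0704). After AMPA+2,4-D its change against all 6 was -0.22 (adjusted p = 0.085), and after the other exposures 0.03 to 0.17.

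The unexposed sets differed from each other in 6 of the 10 genes. Limma called 5 higher in unexposed 1-3 than in unexposed 4-6, where 15.9% of all genes were called higher, and 1 lower, where 15.7% of all genes were. The genes called higher were AKR1C2 by 1.79 ± 0.13 (adjusted p = 1.6e-08), AKR1B10 by 1.77 ± 0.12, AKR1C1 by 1.18 ± 0.16, AKR1B1 by 0.70 ± 0.09 and AKR1C3 by 0.40 ± 0.07 (adjusted p = 0.00027). AKR7A2 was lower by -0.20 ± 0.05 (adjusted p = 0.0032). Leaving out any 1 of the 6 libraries left the number of called members at 6. What distinguishes the sets is not in the labels, and exposure and set cannot be told apart for a gene whose exposed libraries resemble 1 of them. The labels also give no batch for exposed and unexposed libraries. For every gene, exposure and a batch difference between exposed and unexposed libraries therefore cannot be told apart.

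The exposures were also compared with each other, since mixtures and single compounds shared dose and time. With the spread shared by 6 groups limma called none of the 10 genes in any of 8 comparisons. In 6 of them 0.00% of all genes were called, in AMPA+2,4-D against AMPA 2.71% and in AMPA+2,4-D against glyphosate+2,4-D 0.261%. At an unadjusted p under 0.05 AKR1D1 passed in glyphosate+2,4-D against glyphosate (0.41 ± 0.13), as did 7.95% of all genes. AKR7A3 passed in AMPA+2,4-D against AMPA (18.2% of all genes) and against 2,4-D (10.6%). In each of these comparisons 1 of 10 members is near or below the share of all genes. In AMPA+2,4-D against glyphosate+2,4-D 3 of 10 members passed, AKR1A1, AKR7A2 and AKR7A3, which is above the 15.7% of all genes. The other 4 comparisons had 0 members at that limit, beside 3.06% to 7.15% of all genes. Voom on recovered reads also called 0 members in all 8, and its share of all genes is not given here. In the limma fit of 6 groups the unexposed sets widen the spread of AKR1B10, AKR1C1 and AKR1C2. Their 95% intervals in AMPA against glyphosate reached from -0.83 to 1.01, from -0.65 to 0.70 and from -0.98 to 0.88.

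With the unexposed sets kept as separate groups, a choice made after seeing the data, the intervals were narrower and adding 2,4-D to AMPA gave 3 calls, where 9.56% of all genes were called. Calls of this fit between exposures were not repeated under the other settings or without single libraries. AKR1C2 rose by 0.45 ± 0.13 in AMPA+2,4-D over AMPA (adjusted p = 0.039) and AKR1C3 by 0.24 ± 0.07 (adjusted p = 0.042). AKR7A3, with only 13 to 40 reads a library, fell by 0.39 ± 0.12 (adjusted p = 0.046). For all 3 genes the AMPA+2,4-D libraries did not overlap with the AMPA libraries, and the same was true of AKR1B10, AKR1C1, AKR1D1 and AKR7A2, which were not called; among all genes 25.5% did not overlap. In AMPA+2,4-D against glyphosate+2,4-D AKR7A2 was called (-0.20 ± 0.05, adjusted p = 0.023), where 5.24% of all genes were. The 5 comparisons left, 2,4-D against AMPA (0.0522% of all genes called), AMPA+2,4-D against 2,4-D (0.0448%), 2,4-D against glyphosate (0.00%), glyphosate+2,4-D against 2,4-D (0.00%) and glyphosate+2,4-D against glyphosate (0.224%), gave no member call. Adding 2,4-D to glyphosate gave no member call in either fit, with AKR1D1 at 0.41 ± 0.13 (adjusted p = 0.18) and AKR1B10 at 0.31 ± 0.12 (adjusted p = 0.26). AMPA minus glyphosate, at unequal doses, was -0.14 to 0.13 over the 10 genes, with 0 members called (0.00% of all genes).

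Related genes were counted for context, beginning with other aldo-keto reductases. Of 9 further superfamily genes 7 were in the tables and 1, KCNAB2, a potassium channel subunit, was tested. It was lower in all 5 exposures against all 6 unexposed libraries (-0.27 to -0.16) and against unexposed 4-6, but against unexposed 1-3 only after AMPA+2,4-D. AKR1B15, the closest relative of AKR1B10, was at most at 0.450 FPKM, and AKR7L at most at 0.656 FPKM.

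Among 27 tested NRF2 target genes outside the family, 10 to 14 were lower and 1 was higher in the exposures against all 6 unexposed libraries. There 22.6% to 25.1% of all genes were lower and 25.0% to 28.0% higher. Against unexposed 1-3, 23 to 25 were lower and 1 higher, with medians of -0.73 to -0.57 beside 0.00 to 0.02 for all genes tested. The shares of all genes were 26.3% to 27.7% lower and 27.9% to 30.3% higher. Against unexposed 4-6, 7 to 9 were lower and 7 to 10 higher, with medians of -0.06 to 0.01. Between the unexposed sets 24 of the 27 were called higher in replicates 1-3 (15.9% of all genes) and 2 lower (15.7%), with a median of 0.62. HMOX1, heme oxygenase, held 12.2 to 15.5 FPKM in exposed libraries, 36.0 to 40.8 FPKM in unexposed 1-3 and 19.2 to 20.4 FPKM in unexposed 4-6, and SLC7A11, the cystine importer, 11.6 to 15.6, 24.7 to 28.4 and 19.2 to 20.96 FPKM in the same groups. Both were lower in all 5 exposures against either set. TKT, the transketolase of the pentose phosphate pathway, changed by -0.29 to -0.11 against all 6 unexposed libraries, with all 5 changes called.

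Other enzymes that reduce carbonyls or oxidise aldehydes were mostly called lower against both sets. Of 25 tested, of which CBR1 and CBR3 are also on the NRF2 list, 13 to 20 were lower and at most 1 higher against all 6 unexposed libraries, where 22.6% to 25.1% of all genes were lower. Against unexposed 1-3, 14 to 17 were lower (26.3% to 27.7% of all genes), and against unexposed 4-6, 17 to 20 (21.7% to 24%). Between the unexposed sets 6 were higher and 7 lower. The 4 named by smallest p were ALDH1B1, ALDH6A1 and ALDH5A1, aldehyde dehydrogenases of the mitochondrion, and ADH6, an alcohol dehydrogenase. ALDH1B1 held 14.0 to 19.4 FPKM in exposed libraries, 32.3 to 33.0 FPKM in unexposed 1-3 and 32.9 to 34.5 FPKM in unexposed 4-6. ADH6 held 2.87 to 4.67, 7.75 to 8.68 and 11.6 to 12.9 FPKM in the same groups. Changes of ALDH6A1 were -1.24 to -1.03 and those of ALDH5A1 -0.84 to -0.67 against all 6 unexposed libraries, called in all 5 exposures.

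The pathways in which AKR1D1 and the AKR1C enzymes act did not move as 1 block. Of 10 tested bile acid synthesis genes 2 were higher and 2 to 5 lower against all 6 unexposed libraries, 3 higher and 2 to 3 lower against unexposed 1-3, and 1 to 2 higher and 5 to 6 lower against unexposed 4-6. The changes named here are against all 6. SLC27A2, which activates bile acid precursors, held 4.52 to 6.89 FPKM in exposed libraries and 9.34 to 13.4 FPKM in unexposed ones, and ACOX2, which shortens their side chain, 4.599 to 6.47 and 6.61 to 9.16 FPKM, both lower in all 5. SCP2, the peroxisomal thiolase that acts later in that shortening, rose in all 5 (0.16 to 0.27), and HSD17B4, the enzyme between them, was lower after glyphosate (-0.17) and AMPA (-0.14) alone. Of 12 tested steroid hormone genes 1 to 3 were higher and 2 to 4 lower against all 6. Against unexposed 1-3, 3 to 5 were higher and 2 to 4 lower (medians of 0.08 to 0.14), but against unexposed 4-6, 1 to 2 were higher and 5 to 7 lower (medians of -0.23 to -0.15). SULT1E1, estrogen sulfotransferase, was lower in 4 exposures (-0.88 to -0.49) and at -0.21 after AMPA+2,4-D (adjusted p = 0.14), and SRD5A3, a steroid reductase relative that also acts in dolichol synthesis, was lower in all 5 (-0.46 to -0.27). HSD17B7 was lower in 3 of 5 exposures and HSD17B8 in 4 of 5. In the polyol and fructose pathway of AKR1B1, 4 genes were tested, of which 0 were higher and 1 to 2 lower against all 6, 0 to 1 higher and 1 to 2 lower against unexposed 1-3, and 0 higher and 2 to 3 lower against unexposed 4-6. GLYCTK, glycerate kinase, was lower in all 5 (-0.89 to -0.66), SORD, which turns sorbitol into fructose, after AMPA+2,4-D alone (-0.17), and KHK and TKFC in none.

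**Figure D4:**
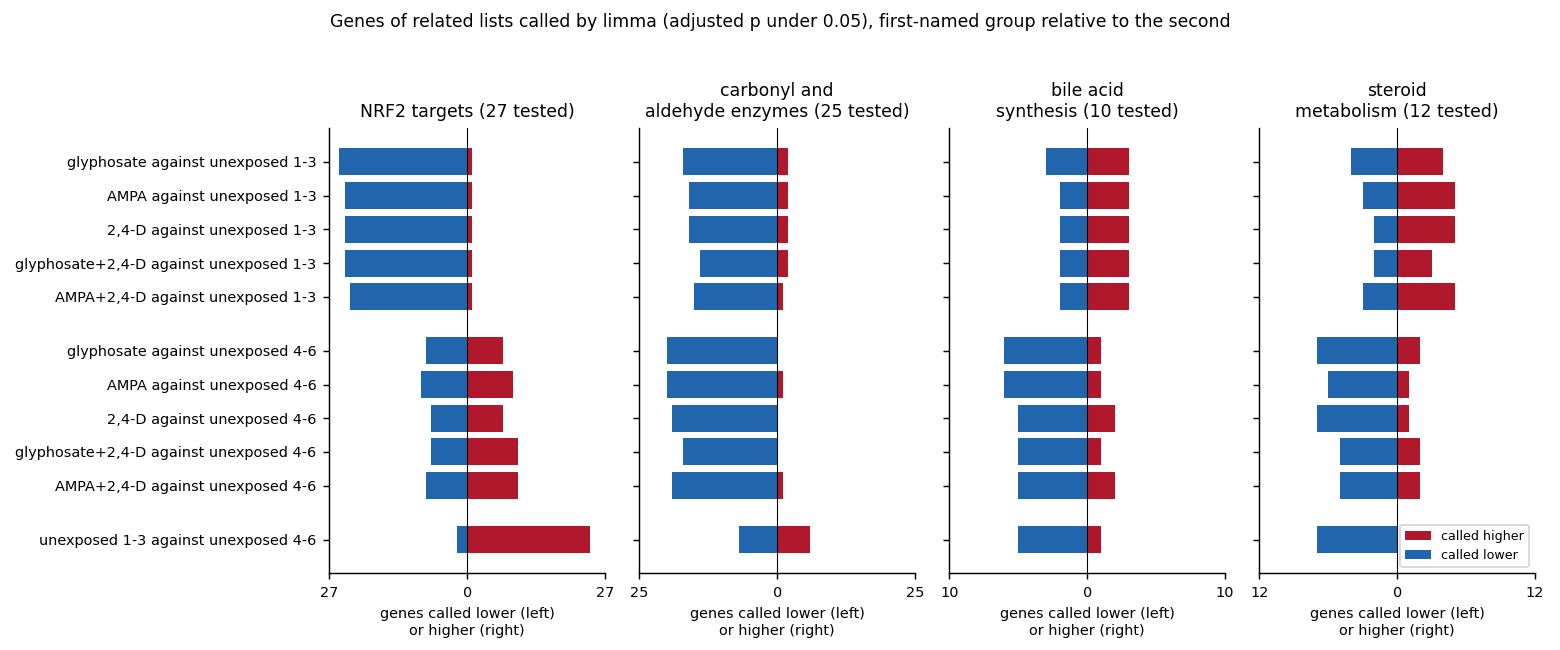
Number of genes called lower (blue, left of 0) and higher (red, right of 0) by limma in 4 lists of related genes, for each exposure against unexposed 1-3 and against unexposed 4-6 and, in the lowest row, for unexposed 1-3 against unexposed 4-6. NRF2 targets are lower in 23 to 25 of 27 against unexposed 1-3 and go both ways against unexposed 4-6, while the carbonyl and aldehyde enzymes are mostly lower against both.

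Genes with the most similar profiles were sought for AKR1B10, AKR1C1 and AKR1D1, by the root-mean-square difference between centred profiles of 7 group means (log2 of FPKM + 1) among 10502 protein-coding genes outside the family. For AKR1B10 these were FNDC4 (difference 0.169), ALDH1A1, the retinaldehyde dehydrogenase (0.224) and CYP4F11 (0.246), and within the family AKR1C2 was the closest (0.268). ALDH1A1 held 36.8 to 50.9 FPKM in exposed libraries, 125 to 147 FPKM in unexposed 1-3 and 54.0 to 61.9 FPKM in unexposed 4-6. For AKR1C1 they were NXPE3 (0.107), SRXN1, sulfiredoxin (0.119), EPHX1, the microsomal epoxide hydrolase (0.120), and ZNF114 (0.120), while AKR1C2 was at 0.170. SRXN1 and EPHX1 are also on the NRF2 list. For AKR1D1 they were METTL7A (0.0838), ZBED3 (0.0976), SLC26A1 (0.1002) and IDH1 (0.101), the cytosolic isocitrate dehydrogenase. METTL7A held 12.8 to 21.04 FPKM in exposed libraries, 35.8 to 38.4 FPKM in unexposed 1-3 and 39.3 to 43.7 FPKM in unexposed 4-6. These likenesses rest on 7 group means that share the same libraries and are descriptions without a test.

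**Figure D5:**
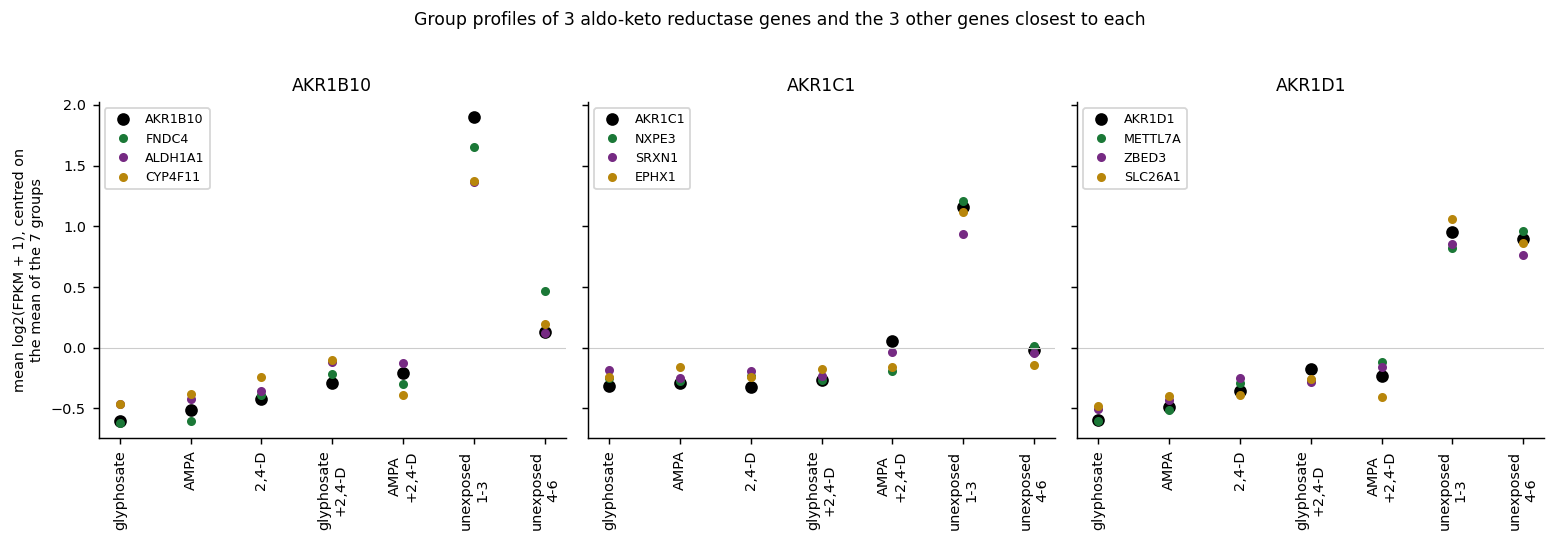
Centred group means of log2 of FPKM + 1 (y axis) in the 7 groups (x axis) for AKR1B10, AKR1C1 and AKR1D1 (large black points) and the 3 other protein-coding genes closest to each (small coloured points). AKR1B10 and AKR1C1 with their neighbours peak in unexposed 1-3, whereas AKR1D1 and its neighbours are high in both unexposed sets.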

How the data were processed

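RNA-seq was analysed from 21 libraries in 6 groups. The authors deposited FPKM values per gene in 6 tables on GRCh38. Reads were aligned with HISAT2 2.0.5 and counted with featureCounts 1.5.0-p3, per the submitters' processing notes. Strandedness and the handling of reads that fit several genes are not given in the sources used here. Genes in all 6 tables with at least 1 FPKM in at least 3 libraries were tested (13405 of 28808 listed). Values were taken as log2(FPKM + 1), which understates changes of low genes, and linear models were fitted in R 4.3.3 by limma 3.58.1, with tables read by the package data.table (version 1.17.8). The 6 study groups shared 1 fit for comparisons with all unexposed libraries and between exposures, and 7 groups, with unexposed 1-3 and 4-6 apart, for those with a set. P-values were adjusted by the Benjamini-Hochberg method over all genes tested, and calls needed an adjusted p under 0.05. Dividing by the value of 1 read gave whole reads (within 0.1) in 100% of values, and voom was run on these as an alternative. The library size used in the FPKM, divided by the sum of these reads, differed between groups. This ratio ran from 1.066 to 1.082 for unexposed 1-3, from 1.029 to 1.049 for unexposed 4-6 and from 0.942 to 1.009 for exposed libraries. A lower ratio gives a higher FPKM for the same share of reads. Voom took the sum of these reads as library size. For single genes it gained 26 calls over the main fit, lost 4 and reversed 1. Scaling to TPM, which also replaces that library size, gained 23, lost 5 and reversed 1. Both differ from the main fit in other ways too, so how far the ratio alone moved single calls was not tested. Further settings were a pseudocount of 0.1, no filter, other scalings, the compared groups alone, a replicate block and leaving out each library. The fitting was tested on simulated data. Members and gene lists were chosen with earlier results of these data known. Named genes outside the family are up to 4 per list with the smallest p for glyphosate against unexposed, and the 4 closest profiles. A few genes that this rule picks are not reported here. Columns of per-sample values left unused numbered 0. Coding sequences are from GENCODE transcripts (GRCh38) and the sequences of start regions from RefSeq (GRCh38.p14).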

Additional observations from a re-analysis of the deposited data

How the results depend on the processing

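Of 359 alternative values for counts of called members 333 stayed within 1.5 times the reported count, and of 2344 for single genes 2148 kept direction and call, 101 lost a call, 92 gained one and 3 reversed. Counts under no filter, scaling, voom, compared groups alone, replicate block or fewer libraries are given without the share of all genes called there. They do not set the members against all genes. Without a filter AMPA+2,4-D against unexposed 4-6 gave 3 members. With scaling to TPM, 2,4-D against all unexposed gave 7, and glyphosate and AMPA against unexposed 4-6 gave 5 and 7. AKR7A2 after AMPA against all unexposed then reversed to -0.16. With the compared groups alone, glyphosate, AMPA and glyphosate+2,4-D against all unexposed gave 3, 3 and 2. Voom gave 7 for 2,4-D against all unexposed and 7, 8 and 5 for glyphosate, AMPA and 2,4-D against unexposed 4-6, with AKR7A2 after AMPA against all unexposed at -0.14. In the replicate block, numbers 4 to 6 occur in unexposed libraries only, so its comparisons with all unexposed rest on unexposed 1-3 alone. The block gave 7 for 2,4-D, 8 for glyphosate+2,4-D and 9 for AMPA+2,4-D, with AKR1B1 after glyphosate+2,4-D at -0.33. Same-numbered libraries correlated by -0.119 to 0.0884, with 0 of 45 pairs over 0.1, and 7 of 18 libraries correlated best with their own number, so the numbers do not pair the libraries. The cause of the other changes was not tested. Added after seeing the data, unexposed sets apart gave 3 for AMPA+2,4-D against AMPA and 1 against glyphosate+2,4-D, and leaving out AMPA+2,4-D replicates 1 and 3 gave 1 against all unexposed and 1 against unexposed 4-6. Leaving out 1 library gave 3 to 6 for glyphosate, AMPA and 2,4-D, 2 to 6 for glyphosate+2,4-D and 2 to 5 for AMPA+2,4-D against all unexposed. It gave 7 to 8 for glyphosate, AMPA and 2,4-D, 8 for glyphosate+2,4-D and 7 to 9 for AMPA+2,4-D against unexposed 1-3. Against unexposed 4-6 it gave 3 to 4, and 2 to 5 for AMPA+2,4-D. Between unexposed sets it gave 6, and between exposures, in the fit of 6 groups, 0. AKR1C4 and AKR7A3, with 12 to 70 and 13 to 40 reads, are limited by depth.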
